A study of Mus musculus with 28 samples.

Results

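Open chromatin at 39 genes of rod phototransduction and the rod outer segment was described in purified mouse Müller cells, using 1 ATAC-seq peak list from control retinae and 1 from db/db retinae. The 39 genes were chosen by name for their known role in rods, at a time when earlier results of these data were known, out of 21911 protein-coding genes of the annotation. A region was counted for a gene when it overlapped the gene or the 5 kb to either side of it. This gave 101 regions in the control list, out of 46189, and 88 regions in the db/db list, out of 64883. A region found in 1 list with no overlap of at least 1 bp in the other is called control-only or db/db-only here, and a rod gene is said to lose a region where that region was control-only.

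ATAC-seq uses a transposase to cut accessible DNA, so that a peak marks chromatin that was open in some of the cells sampled. The control animals are labelled WT, although per the methods db/+ heterozygotes, which do not become diabetic, also served as controls in the study. The diabetic animals are labelled db/db and have both copies of Lepr, the leptin receptor gene, mutated, become obese and develop type 2 diabetes. Both groups were 6 months old, and per the methods the colony had a BKS background and mice of both sexes were used. The Müller cells were obtained by magnetic sorting, as the cells bound through CD29 after microglia and vascular cells had been taken out with CD11b and CD31, so that retinal neurons were to stay in the unbound remainder. The labels give 2 libraries per genotype, with a peak list attached to replicate 1 of each.

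Rods are the photoreceptors of dim light and by far the most numerous neurons of the mouse retina. Light activates the G-protein transducin, which switches on a phosphodiesterase that breaks down cGMP, and cGMP-gated channels in the outer segment close; kinases, arrestin, a GTPase-activating complex and calcium-sensing proteins then restore the dark state. The genes for this machinery are switched on in photoreceptors by the transcription factors CRX and NRL. Müller glia are the supporting cells that span the retina and enclose the rod cell bodies, and they are not known to use the rod cascade themselves.

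The promoters of the rod genes show where the regions described here lie. Below are the bases just upstream of the start of 8 genes, 5′ to 3′ on the strand of the gene. They were read from RefSeq (GRCm38.p6, the same build as the lists) and cut to the bases outside annotated exons. Capitals mark GGATTA, the core of the CRX motif (TAATCC when the other strand carries it), and TGCTGA, the core of the NRL motif (TCAGCA when the other strand carries it). The first 5 genes are shown because their promoter was open in the control list and not in the db/db list, namely Tulp1 (chr17:28365223-28365416, minus strand), Aipl1 (chr11:72037510-72037709, minus strand), Rbp3 (chr14:33953803-33954002, plus strand), Guca1a (chr17:47400607-47400806, minus strand) and Samd7 (chr3:30746093-30746292, plus strand). The other 3 are shown because they ranked high among the promoters open in both lists for which such bases were found, namely Rgs9 (chr11:109298182-109298381, minus strand), Rdh12 (chr12:79208713-79208912, plus strand) and Rdh8 (chr9:20818294-20818493, plus strand).
Tulp1: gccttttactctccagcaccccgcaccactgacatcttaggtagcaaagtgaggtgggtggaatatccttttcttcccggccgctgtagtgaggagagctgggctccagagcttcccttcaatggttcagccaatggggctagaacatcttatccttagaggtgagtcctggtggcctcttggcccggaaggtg
Aipl1: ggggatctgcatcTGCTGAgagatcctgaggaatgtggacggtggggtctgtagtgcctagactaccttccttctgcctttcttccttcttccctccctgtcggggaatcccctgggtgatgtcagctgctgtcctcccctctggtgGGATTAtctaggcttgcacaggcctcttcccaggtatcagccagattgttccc
Rbp3: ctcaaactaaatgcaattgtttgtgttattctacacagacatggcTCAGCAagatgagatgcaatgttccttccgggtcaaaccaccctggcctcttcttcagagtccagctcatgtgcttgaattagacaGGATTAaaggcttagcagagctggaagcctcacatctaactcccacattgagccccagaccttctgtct
Guca1a: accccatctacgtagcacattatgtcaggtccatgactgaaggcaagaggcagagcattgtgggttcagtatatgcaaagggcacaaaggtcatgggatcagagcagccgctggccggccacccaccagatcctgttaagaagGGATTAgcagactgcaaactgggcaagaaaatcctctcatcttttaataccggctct
Samd7: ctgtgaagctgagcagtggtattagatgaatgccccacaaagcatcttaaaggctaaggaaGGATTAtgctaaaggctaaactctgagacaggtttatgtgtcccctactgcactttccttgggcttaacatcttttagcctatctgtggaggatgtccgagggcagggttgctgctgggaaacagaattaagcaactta
Rgs9: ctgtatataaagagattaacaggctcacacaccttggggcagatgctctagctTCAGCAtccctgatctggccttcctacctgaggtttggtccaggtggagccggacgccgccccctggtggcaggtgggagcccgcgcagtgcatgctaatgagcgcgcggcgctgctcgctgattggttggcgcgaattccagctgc
Rdh12: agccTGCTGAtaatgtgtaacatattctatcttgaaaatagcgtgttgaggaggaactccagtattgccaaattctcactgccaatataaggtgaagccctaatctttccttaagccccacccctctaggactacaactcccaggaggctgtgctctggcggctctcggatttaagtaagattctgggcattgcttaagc
Rdh8: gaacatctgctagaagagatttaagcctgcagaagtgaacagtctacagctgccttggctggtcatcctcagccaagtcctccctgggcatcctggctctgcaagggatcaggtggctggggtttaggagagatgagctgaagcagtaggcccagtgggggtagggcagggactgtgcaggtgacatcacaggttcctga

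Of the 101 control regions at rod genes, 32 had no counterpart in the db/db list, a share of 31.7% (95% Wilson interval 23.4 to 41.3%). The same share over the control regions at all coding genes was 3.91% (1281 of 32783). In the other direction, 20 of the 88 db/db regions at rod genes were db/db-only, which is 22.7% (15.2 to 32.5%), where the regions at all coding genes gave 29.1%. This order turned when the lists were cut to equal numbers of regions by −log10 p, with 13.6% at rod genes and 11.6% at coding genes. The db/db list is the longer of the 2, yet rod genes had more regions in the control list. Each genotype is represented by 1 list, so no replicate spread is known, no test between genotypes was possible, and the intervals cover counting error only. Fewer rods among the sorted cells and less open chromatin in each rod cannot be told apart in such bulk samples.

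Of the 36 rod genes with a control region, 24 held at least 1 control-only region, beside 8.25% of the coding genes with a control region. Genes with more regions have more chances to hold one, so genes with equal numbers were also set side by side. Among rod genes with 2 control regions 10 of 13 held a control-only region, and among all coding genes with 2 it was 6.57%. With 1 region it was 1 of 6 beside 1.68%, and with 3 it was 3 of 6 beside 10.9%. With 4 regions it was 5 of 6 beside 15.8%, and with 5 or more it was 5 of 5 beside 28.7%. The control-only regions were spread over the genes, and no gene held more than 2. Gnat1, Pde6a, Pde6b, Cnga1, Guca1a, Rgs9, Prph2 and Rbp3 held 2 each. Of the coding genes with a control region 0.926% held 2 or more, and of those with at least 2 control regions 1.59% did. At Pde6a, Guca1a, Rbp3 and Kcnv2, every control region was control-only. In all, 16 rod genes had more regions in the control list, 17 had as many in each, and 6 had more in the db/db list. No background over all coding genes is given for this split, or for genes with control-only regions alone. The lists also differ in length. Gngt1, Pdc and Impg2 had no region in either list, as was the case for 25.8% of all coding genes.

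**Figure D1:**
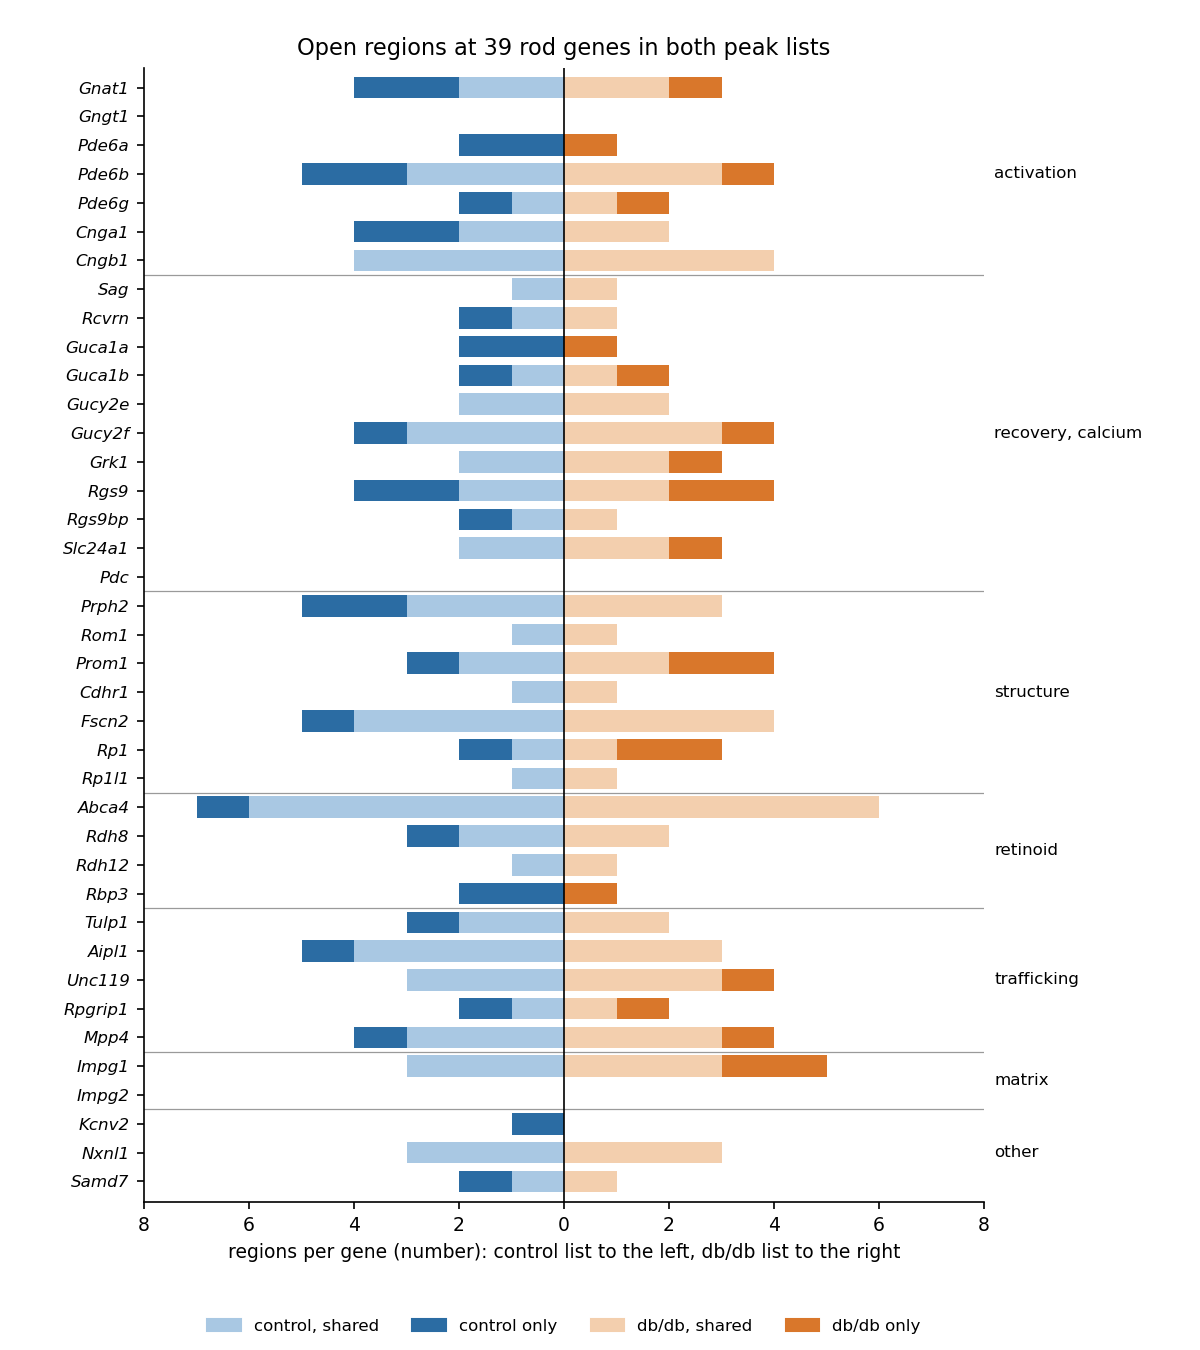
Number of open regions at each of the 39 rod genes, with the control list to the left and the db/db list to the right of the midline, and regions without a counterpart in the other list in the darker colour. Genes are ordered by role. Control-only regions lie at 24 of the 36 genes with a control region, beside 8.25% of such coding genes. Db/db-only regions lie at 17 of the 35 genes with a db/db region, beside 42.6% of such coding genes. Kcnv2 has no region in the db/db list.

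Much of the difference lay at the promoters of the rod genes themselves. A promoter was called open when a region had its summit, or highest point, no more than 1 kb from any annotated start of the gene. In the control list, 32 of the 39 rod genes had an open promoter (58.5% of all coding genes did), and in the db/db list 23 did (61.6% of all coding genes). With lists of equal numbers the db/db count was 12 (58.4% of all coding genes). The promoter was open in both lists at 21 genes, in the control list alone at 11, in the db/db list alone at 2 (Rp1 and Impg1) and in neither at 5. Over the whole annotation, 92 of the 12823 coding genes with an open promoter in the control list had none in the db/db list, which is 0.717%, so that 11 of these 92 genes were rod genes. In the other direction it was 5.64% of the coding genes with an open promoter in the db/db list. The 11 rod genes were Pde6b, Pde6g, Cnga1, Guca1a, Guca1b, Prom1, Rbp3, Tulp1, Aipl1, Kcnv2 and Samd7.

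Among the 44 control regions at a rod gene's own promoter, 19 were control-only (43.2%, 29.7 to 57.8%), beside 1.64% of the control regions at promoters of coding genes. Of the 46 regions away from any promoter, 13 were control-only (28.3%, 17.3 to 42.5%), beside 5.55% at coding genes. The remaining 11 regions fell within the 5 kb flanks but at the promoter of a neighbouring coding gene, such as Slc38a3 beside Gnat1, Atp5k beside Pde6b and Tead3 beside Tulp1. None of these 11 was control-only, an upper Wilson bound of 25.9%. In the db/db list, 4 of 29 regions at a rod gene's own promoter, 0 of 10 at a neighbour's promoter and 16 of 49 away from promoters were db/db-only. The first and the last of these, 13.8% and 32.7%, were close to the 12.1% and 38.2% of all coding genes.

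In the control list, regions at rod genes were weaker and narrower than regions at genes in general. Strength was given in each list as a percentile, from 0 for the weakest region to 100 for the strongest, either of the deposited signal, a fold enrichment, or of the deposited −log10 p. The raw values differ between the whole lists. The median signal was 10.6 in the control and 8.6 in the db/db list, and the median −log10 p was 137 and 98.5. Raw values given below for both lists are not corrected for this. The median signal percentile of the rod gene regions was 31.3 in the control list, where the regions at all coding genes had 50.1, and by −log10 p it was 42.4 against 54.0. In the db/db list the medians were nearer to those of coding genes, with 47.9 against 50.0 by signal and 47.0 against 53.1 by −log10 p. The median width of the control regions was 580 bp at rod genes and 766 bp at coding genes.

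Across all genes the weak control regions more often had no counterpart, so the share was also taken within 5 equal bins of strength. In the weakest bin by −log10 p, 9 of 19 control regions at rod genes were control-only, beside 13.8% at coding genes. In the next bins it was 10 of 21 beside 4.04%, 12 of 32 beside 2.70%, and 1 of 17 beside 0.595%. None of the 12 in the strongest bin was missing, nor was any of the 7978 regions at coding genes in that bin. In the 3 weaker bins the interval of the rod gene share lay far above the coding gene share, while the 2 stronger bins held only 1 missing rod gene region. By signal, the counts were 20 of 37, 9 of 26, 3 of 18, 0 of 15 and 0 of 5 from the weakest bin to the strongest, beside 9.86%, 5.61%, 2.47%, 1.19% and 0.21% at coding genes.

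**Figure D2:**
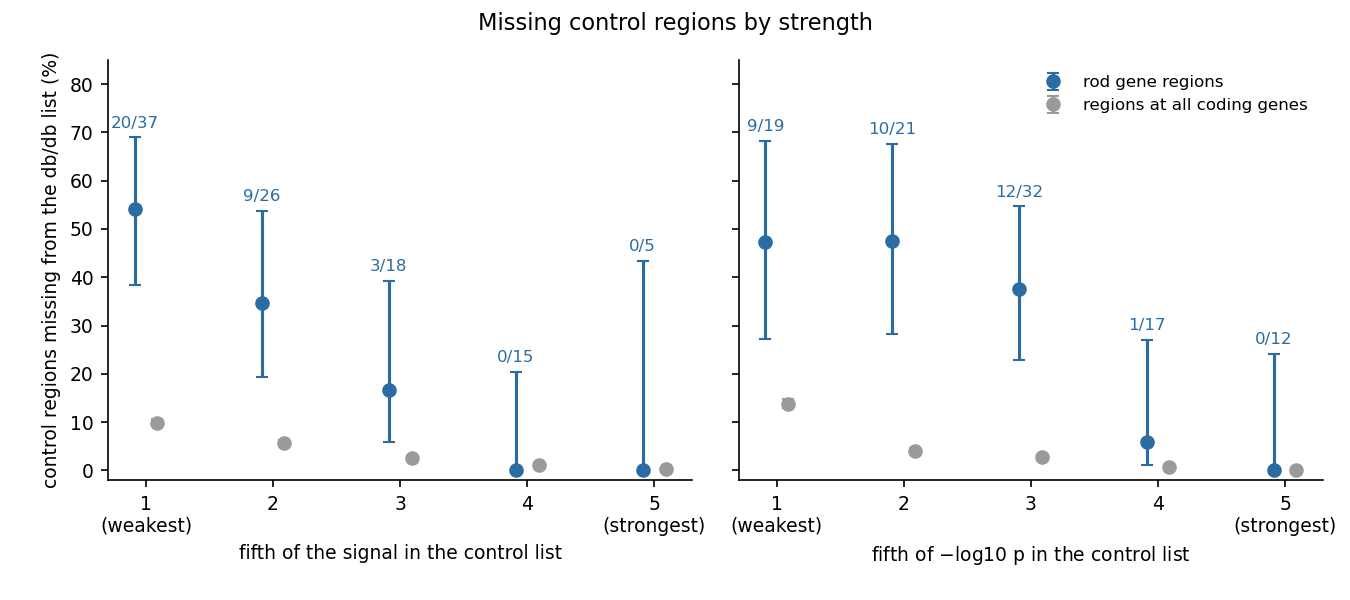
Share of control regions missing from the db/db list (%) in 5 equal bins of strength, by signal on the left and by −log10 p on the right, for rod gene regions and for regions at all coding genes. Bars are 95% Wilson intervals, and the fractions are missing regions over all regions at rod genes. In the weakest bin by signal the shares are 54.1% and 9.86%.

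Rod gene regions that were in both lists also moved in rank. To keep the different lengths of the lists out of this comparison, percentiles of −log10 p were taken among the 43519 regions that had exactly 1 partner in each list, a choice made after the lists had been seen. Of the 67 such regions at rod genes, 25 were lower in the db/db list by over 20 points (37.3%), beside 3.28% of the regions at coding genes, and 3 were higher by over 20 points (4.48%, beside 2.54%). The changes ran from −57.9 to 24.3 points with an SD of 23.3 over regions, where coding genes had an SD of 10.5, and the median was −5.09. At the 25 regions at a rod gene's own promoter the median was −34.7, with 14 lower by over 20 points (3.35% of the regions at coding promoters) and none higher by that much. By signal instead of −log10 p, 12 of the 67 regions (3.14% at coding genes) and 8 of these 25 (2.84% at coding promoters) were lower by over 20 points, and 4 of the 67 (2.84% at coding genes) were higher by as much.

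Put together, 27 of the 32 rod genes with an open control promoter had a promoter region missing or lower in the db/db list. Lower means by over 20 points, ranked by −log10 p among regions with 1 partner. This was so for 5.17% of the coding genes with an open promoter. The count of 27 depends on that measure. By signal the promoter regions of Rcvrn and Cdhr1 changed by −9.65 and −11.8 points. The Prph2 promoter and the weaker Unc119 region began at signal percentiles of 10.8 and 3.14 in the control list, too low to fall by over 20. Any region with its summit within 1 kb of any annotated start was taken. Rgs9 and Unc119 are among the 27 through weaker regions, while their main promoter regions changed by 0.809 and −3.55 points. The 5 rod genes whose promoter regions were neither were Cngb1, Gucy2f, Rgs9bp, Rom1 and Abca4. Gucy2f could not meet the limit of 20 points. Its promoter region stood at percentile 18.5 in the control list and at 0.0977 in the db/db list. The promoter region of Rgs9bp is shared with the neighbouring gene Ankrd27 and that of Rom1 with Eml3. That of Cngb1 lies near an internal start and not at its first start.

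**Figure D3:**
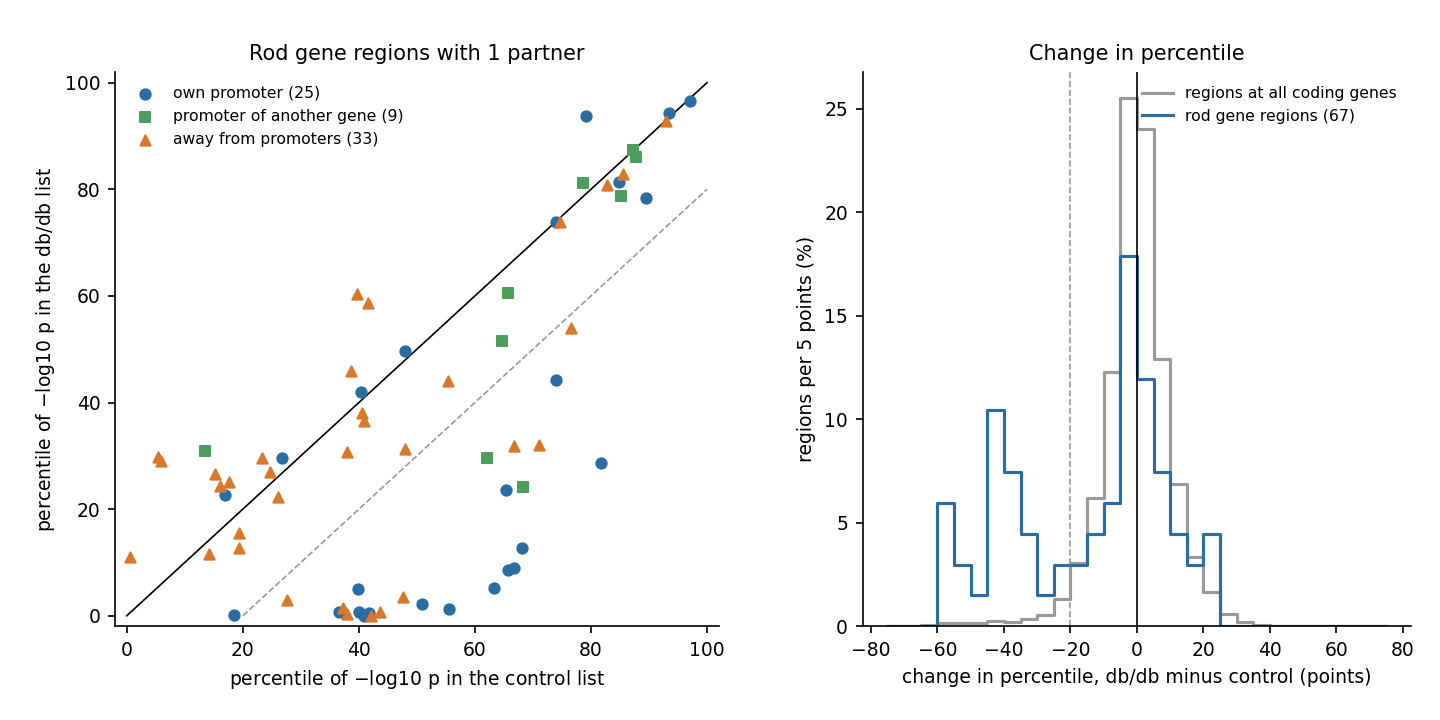
On the left, percentile of −log10 p in the control list (x axis) and in the db/db list (y axis) for the 67 rod gene regions with 1 partner, by place; the solid line marks no change and the dashed line a fall of 20 points. On the right, the change in percentile (points) of these regions beside that of regions at all coding genes, as a percentage of regions per bin; 37.3% of the rod gene regions and 3.28% of the others lie below the dashed line.

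The activation steps of the cascade held 9 control-only regions out of 21. Gnat1, the alpha subunit of rod transducin, had a control-only region over its transcription start (chr9:107679503-107679921, summit 22 bp upstream, signal 5.39, −log10 p 117). A further control-only region of Gnat1 lay at an alternative start within the gene (chr9:107678269-107678665, signal 4.27). A region in an intron, 301 bp past another annotated start, was kept in both lists at a signal of 5.35 in the control and 7.25 in the db/db list. The Gnat1 promoter counts as open in the db/db list through that region and a weak db/db-only one. The latter lay in an exon, 737 bp past a start (chr9:107677340-107677708, signal 3.64).

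Pde6a, Pde6b and Pde6g encode the catalytic and inhibitory subunits of the rod phosphodiesterase. Pde6b lost the region at its start (chr5:108388218-108388815, summit 13 bp upstream, signal 6.66) and an intronic one near an alternative start (chr5:108431200-108431556, signal 8.04). An intronic region 1466 bp past the start was in both lists with a signal of 7.72 in the control and 5.38 in the db/db list. A weak db/db-only region of Pde6b lay 1249 bp upstream of a start (chr5:108386842-108387282, signal 5.16). Pde6g lost the region at its start (chr11:120453325-120453823, summit 3 bp upstream, signal 6.14) and had a db/db-only region inside the gene (signal 8.04). Pde6a had no region at its start in either list, and of its intronic regions the 2 in the control list were control-only (the stronger at chr18:61245995-61246557, signal 8.21) and the 1 in the db/db list was db/db-only.

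Cnga1 and Cngb1 encode the rod cGMP-gated channel. Cnga1 had control-only regions near 2 starts (chr5:72642643-72642933 with a signal of 7.18 and chr5:72643649-72643912 with a signal of 4.35) and no promoter region in the db/db list. At Cngb1 all 4 regions were in both lists. The region that counts as its promoter lay in an intron, 811 bp upstream of an internal start in the control list. That region had a signal of 12.6 in the control and 13.2 in the db/db list. The nearest control summit to the first start of Cngb1 was 4159 bp away. The strongest Cngb1 region (chr8:95254683-95255350), an intronic one, was at percentile 91.0 by signal in the control and 92.1 in the db/db list. No region was listed at Gngt1, the gamma subunit of transducin.

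The recovery and calcium feedback genes held 8 control-only regions out of 23. Guca1a and Guca1b, neighbouring genes for the calcium-sensing activators of guanylate cyclase, both lost the region at their start. At Guca1b it stood at percentile 64.9 by −log10 p (chr17:47384999-47385530, summit 55 bp upstream, −log10 p 201), and it was the only control-only region at rod genes above percentile 60. At Guca1a the lost regions were the promoter (chr17:47400323-47400885, signal 6.16) and an intronic region (chr17:47398909-47399536, signal 6.79). A weak db/db-only region of signal 4.57 lay in an intron of Guca1a and, being within 5 kb of Guca1b, was counted for both.

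At 5 further recovery genes the promoter region stayed in both lists but was lower in the db/db list by over 20 points, ranked by −log10 p. At Gucy2e, a retinal guanylate cyclase, the promoter region (chr11:69236453-69237290) went from a −log10 p of 200 and percentile 63.2 to 47.7 and percentile 5.29. By this ranking it was the largest fall among the 67 regions, at −57.9 points, with Sag close to it at −57.8. By signal the largest fall was at the Rdh12 promoter, at −67.5 points. At Sag, the rod arrestin, −log10 p was 221 in the control and 56.3 in the db/db list, a change from percentile 66.8 to 9.02. At Grk1, the kinase that turns off the activated visual pigment, it was 363 and 97.1, and the percentile went from 81.7 to 28.7. Rcvrn, the calcium sensor that restrains this kinase, went from percentile 65.3 to 23.5, and Slc24a1, the rod calcium exchanger, from 41.7 to 0.56. By signal, ranked among regions with 1 partner, the Rcvrn region changed by only −9.65 points. Those of Gucy2e, Sag, Grk1 and Slc24a1 changed by −36.7, −31.0, −35.1 and −25.8 points.

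Rgs9 and Rgs9bp, which encode the GTPase-activating protein that shuts off transducin and its membrane anchor, kept strong promoter regions. The Rgs9 promoter had a signal of 17.8 in the control and 18.8 in the db/db list and a −log10 p of 695 and 669. The Rgs9bp promoter had a signal of 14.4 and 16.6. Rgs9 still held 2 weaker control-only regions (chr11:109278137-109278569 with a −log10 p of 63.5, and chr11:109297016-109297411 with a −log10 p of 114), and 2 db/db-only regions in the upper part of their list, at percentiles 71.2 (chr11:109221388-109222391) and 66.9 (chr11:109244603-109245050) by signal. At Gucy2f, the X-linked guanylate cyclase of photoreceptors, the promoter region was weak in both lists, with a signal of 5.48 and 3.35. Other control-only regions of this group lay at Rcvrn (signal 5.72), Rgs9bp (signal 3.71) and Gucy2f (signal 5.45). Other db/db-only regions lay at Gucy2f (signal 7.53), Grk1 (signal 5.99) and Slc24a1 (signal 3.69). No region was listed at Pdc, phosducin.

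The outer segment structure genes held 5 control-only regions out of 18. At Prph2, the rim protein of outer segment discs, the promoter region (chr17:46910192-46910743) went from a −log10 p of 145 and percentile 50.8 to 38.3 and percentile 2.29. An intronic region went from a −log10 p of 249.6 to 104 and a downstream region from 123 to 29.7, changes of −39.1 and −43.1 points, and 2 others were control-only, so that all 5 Prph2 regions of the control list were missing or lower by −log10 p. By signal, ranked among regions with 1 partner, the promoter changed by −5.67 points, the intronic region by 2.3 and the downstream one by −14.0. The promoter began low by signal, at percentile 10.8 of the control list. The raw signal of the intronic region was 7.57 in the control and 7.63 in the db/db list. Rom1, the partner of Prph2, had a promoter region at a −log10 p of 527 and 323 and percentiles of 89.5 and 78.3.

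Prom1, a protein of nascent discs, lost a weak promoter region (chr5:44100487-44102200, signal 4.62), and its 2 regions in both lists changed by −34.8 and −24.7 points. It gained an intronic db/db-only region of signal 11.9 (chr5:44027674-44028770), the strongest db/db-only region at the rod genes by signal. A weaker db/db-only region lay downstream of Prom1 (signal 5.02). Fscn2, a photoreceptor fascin, lost the region at its start (chr11:120361324-120361630, summit 48 bp upstream) while 2 upstream regions changed by 23.1 and 24.3 points, 2 of the 3 rises of over 20 points. The region at an internal Fscn2 start (chr11:120366163-120366721), the one through which its promoter counts as open in the db/db list, changed by −40.9 points, from a −log10 p of 116 to 19.5. The axonemal protein genes Rp1 and Rp1l1 both had a region that was much lower, an intronic Rp1 region (chr1:4383359-4384046) with a signal of 13.4 and 4.39 and the Rp1l1 promoter with 8.46 and 5.30. Rp1 lost an intronic region (chr1:4357587-4358024, signal 8.50) and had a db/db-only one (chr1:4332456-4332719, signal 10.7). It also had a db/db-only region of signal 5.88 at 808 bp past a start, through which its promoter counts as open in the db/db list. The promoter region of Cdhr1, a photoreceptor cadherin, changed by −29.7 points by −log10 p and by −11.8 points by signal.

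The retinoid handling genes held 4 control-only regions out of 13. Rbp3, the retinoid carrier of the space around outer segments, lost the region at its start (chr14:33953769-33954137, summit 16 bp upstream, signal 6.42), which lies over the bases printed above, and a region further upstream (chr14:33950104-33950483, signal 6.22). Rbp3 also had an intronic db/db-only region (chr14:33959288-33959677, signal 5.89). Rdh8 and Rdh12, the retinol dehydrogenases of photoreceptors, kept promoter regions that were far lower in the db/db list. At Rdh12 the signal was 15.3 in the control and 5.80 in the db/db list, and at Rdh8 it was 13.6 and 7.66. The percentiles of −log10 p changed from 55.5 to 1.21 and from 68.1 to 12.7. Rdh8 also lost an intronic region (chr9:20820011-20820439, −log10 p 128). Abca4, the retinoid flippase of disc membranes, went the other way at its strongest region, 500 bp past an internal start (chr3:122122001-122122675), with a signal of 16.0 in the control and 22.1 in the db/db list, and lost 1 of 7 regions (chr3:122053416-122053904, signal 11.6), the control-only region with the highest signal at any rod gene.

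The trafficking genes held 4 control-only regions out of 17. Tulp1, which moves proteins to the outer segment, and Aipl1, the chaperone of the rod phosphodiesterase, lost the regions at their start (chr17:28364956-28365555 with a −log10 p of 160, and chr11:72037370-72037729 with a −log10 p of 110). A region 3395 bp upstream of Tulp1 and an exonic one of Aipl1 were in both lists and changed by 2.41 and 17.2 points. Rpgrip1, a protein of the connecting cilium, lost the region at its first start (chr14:52110441-52111405, signal 7.76) and kept one at an internal start at a signal of 8.72 and 9.37. The 2 Mpp4 promoter regions in both lists changed by −57.1 and −39.3 points, and a weak one was control-only. Weak db/db-only regions lay in introns of Rpgrip1 (chr14:52124009-52124385, signal 4.77) and Mpp4 (chr1:59142876-59143097, signal 5.72). Unc119, a chaperone of lipidated proteins that is also used outside rods, had a main promoter region that changed by −3.55 points. A weaker Unc119 region at an internal start (chr11:78346395-78346762) changed by −34.7 points and an intronic one (chr11:78344891-78345684) by −37.6, while by signal these 2 changed by −1.96 and −2.36. By signal they began at percentiles of 3.14 and 2.81 in the control list, so there was little room for a fall. Unc119 also had a weak db/db-only region near an internal start (chr11:78347382-78347603, signal 2.93).

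Among the last genes, Kcnv2, a photoreceptor potassium channel subunit, had 1 region over its start in the control list (chr19:27322286-27324081, 1796 bp wide, signal 10.2, percentile 49.3 by −log10 p) and none in the db/db list. Samd7, a photoreceptor repressor protein, lost a weak promoter region (signal 5.33), and its intronic region changed by −44.2 points. Impg1, a protein of the matrix around the outer segments, had no control-only region, and Nxnl1, which encodes a rod-derived survival factor, had none either. At Impg1, 3 intronic regions were in both lists, and 2 regions were db/db-only, one intronic (chr9:80386508-80386846, signal 9.17) and one 60 bp upstream of a start (signal 5.57).

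The 5 largest rises in signal percentile, taken in each whole list and thus with the different lengths of the lists in them, were an exonic Aipl1 region with a signal of 8.04 in the control and 11.8 in the db/db list (chr11:72029151-72029510), an upstream Tulp1 region with 5.53 and 8.45 (chr17:28368472-28368769), an intronic Pde6b region with 4.60 and 7.62 (chr5:108427256-108427525), an upstream Fscn2 region with 4.72 and 7.14 (chr11:120359386-120359807) and the intronic Gnat1 region described above. Ranked among regions with 1 partner, Aipl1, Tulp1 and Pde6b stayed among the 5 largest, with 33.5, 24.2 and 20.5 points, and an intronic Cngb1 region (chr8:95242945-95243651) with 23.1 and the strongest Abca4 region with 16.8 took the places of Fscn2 and Gnat1.

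Several promoters that count as open in both lists do so through an internal start. With the starts of protein-coding transcripts alone, 32 rod genes were open in the control list and 20 in the db/db list, and 14 of the 32 were open in the control list and not in the db/db list (0.748% of the coding genes open in the control list). The 3 genes added to the 11 above were Gnat1, Fscn2 and Rpgrip1.

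The same count was made at other photoreceptor genes and at markers of the other retinal cells. Of 50 control regions at 17 further photoreceptor genes, 10 were control-only (Wilson interval 11.2 to 33.0%), beside 3.91% at all coding genes. They lay at Gnb1, Gnb5, Pde6d, Crb1, Lca5 and Cerkl. The G-protein subunit gene Gnb5, whose product acts with Rgs9, lost a region at percentile 55.8 by −log10 p (chr9:75308584-75309033). For cone markers it was 1 of 8 (at Gnat2), for bipolar cell markers 2 of 32, for amacrine and ganglion cell markers 0 of 16, for microglia 0 of 13, for vascular cells 0 of 14 and for astrocytes 1 of 7. These counts are small, with Wilson intervals of 2.24 to 47.1% for cone, 1.73 to 20.1% for bipolar and 2.57 to 51.3% for astrocyte markers. The upper bounds were 19.4%, 22.8% and 21.5% where none was control-only. Each of these intervals takes in the 3.91% of coding genes, so the counts do not show whether these cell types differ from it. The liver markers, for cells that the retina lacks, had 1 region in the control list at 8 genes and no open promoter.

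Markers of the labelled cell type had open promoters in both lists. Of 12 Müller cell markers, such as Glul, Rlbp1 and Aqp4, 11 had an open promoter in the control list and 12 in the db/db list. Over all coding genes it was 58.5% and 61.6%. The marker regions had median signal percentiles of 13.7 and 15.4 in these lists, beside 50.1 and 50.0 at coding genes. By −log10 p the medians were 55.4 and 54.4, beside 54.0 and 53.1. None of the 43 control regions of the Müller markers was control-only (upper Wilson bound 8.20%, beside 3.91% at coding genes). None of their 41 regions with 1 partner was lower by over 20 points (3.28% at coding genes). Open promoters at 32 rod genes in the control list therefore stood beside open promoters of the sorted cell type. The share of rods among the sorted cells was not measured in these lists, and its part in the rod gene result was not tested.

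The rod gene promoters shared features that were not used to choose the genes. RefSeq windows from 250 bases before to 50 after the start were found for 30 of the 39 genes, 34 windows in all. GGATTA was found on either strand in 14 of the 34 (41.2%, 26.4 to 57.8%), beside 6.44% of 20150 windows of coding genes. TGCTGA was found in 12 (35.3%, 21.5 to 52.1%), beside 17.9%. TATAAA, the TATA box, was in 17.6% beside 12.1%, and CCAAT in 47.1% beside 37.8%, so that the interval of the rod genes takes in the background for these 2. The CpG content, observed over expected, had a median of 0.266 in the rod gene windows and 0.588 in those of coding genes, and 3 of 34 windows (8.82%) reached 0.6, beside 49.1%. The median GC content was 52.0% and 57.0%.

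Within the 14 windows GGATTA occurred 17 times, and 13 of these matches began within 100 bases before the start. On the strand of the gene it read GGATTA in 13 and TAATCC in 4. In the bases printed above it stood 53 bases before the start in Aipl1, 69 in Rbp3, 57 in Guca1a and 139 in Samd7. A match is a string of letters and does not show binding. GGATTA was in 5 of the 9 windows of genes whose promoter was open in the control list alone and in 8 of 20 windows of genes open in both, and with so few windows these shares do not separate. TGCTGA was in 3 of the 9 and 8 of the 20.

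**Figure D4:**
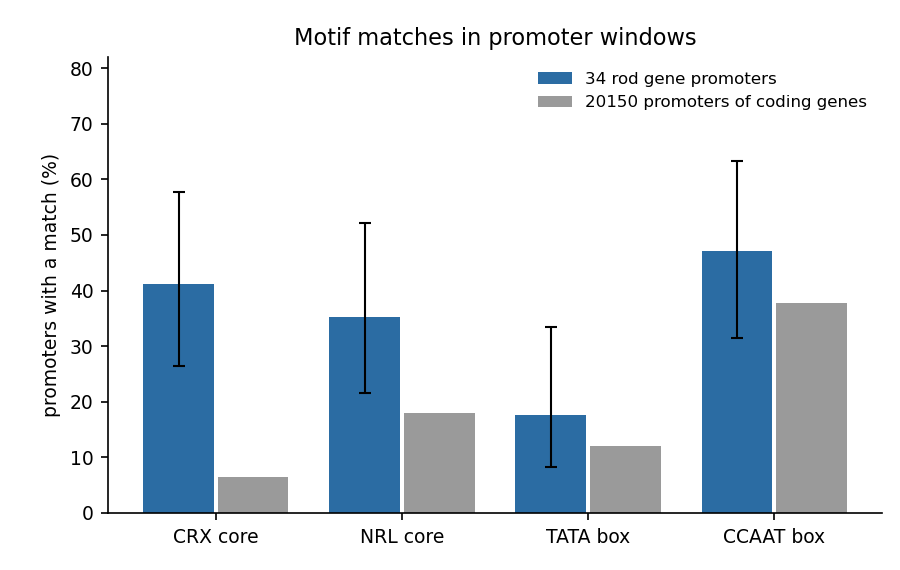
Share of promoter windows (%) that hold the CRX core GGATTA, the NRL core TGCTGA, the TATA box (TATAAA) or CCAAT on either strand, for 34 windows of rod genes with 95% Wilson intervals and for all windows of coding genes. The CRX core is in 41.2% of the rod gene windows and 6.44% of the others.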

How the data were processed

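ATAC-seq was performed by the authors on Müller cells sorted from 6-month-old control (labelled WT) and diabetic db/db retinae. The authors deposited 1 peak list per genotype in mm10 coordinates. The deposited columns are a score for each peak, −log10 values of p and q, and a fold enrichment over background (a ratio), called signal here. The peak caller, its threshold and the scaling are not given in the sources used here. The score starts at 540 in both lists, the value that software for irreproducible discovery rates writes for a rate of 0.05; no such step is named, so whether a list rests on 1 or both libraries is not known. Read depth is unknown from these lists. RNA-seq samples were not analysed here.

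Overlapping rows were merged to 1 region that took its values from the row of highest signal, on all autosomes and both sex chromosomes. Regions that overlapped by at least 1 bp were shared. Genes and starts came from GENCODE M21, promoter sequences from RefSeq (GRCm38.p6). Regions named by rule were the 10 control-only regions with the highest signal, db/db-only regions in the upper part of their list, and the 5 largest falls and rises in signal percentile. Every other control-only or db/db-only region of a member was mentioned, some without a position. Of the other regions in both lists only some were named. Sequences were printed for control-only promoters, then the highest promoters, where at least 100 bases lay outside exons. No test between genotypes was made. Intervals of shares are 95% Wilson intervals for counting error. The members and lists were chosen with earlier results of these data known. The steps were tested on simulated data (6000 regions), where 8 of 8 checks gave the planted values. Python 3.11.15, numpy 2.4.6, scipy 1.17.1, pandas 2.3.3 and matplotlib 3.10.9 were used.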

Additional observations from a re-analysis of the deposited data

How the results depend on the processing

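Of 49 alternative settings, 40 left the value within the limits set for it, 7 moved it and 2 reversed it. With the lists cut to equal numbers of regions by −log10 p, the control-only share at rod genes was 48.5% (coding genes 12.1%), the db/db-only share 13.6% (11.6%), open db/db promoters 12 (58.4% of coding genes), and the median change in signal percentile 1.38. The control median percentile was 42.4 by −log10 p. The whole-list median change was 9.55 at rod genes and 7.94 at coding genes; ranked among regions with 1 partner, a choice made after seeing the data, it was −1.48 by signal and −5.09 by −log10 p. The CRX core share was 67.6% with GATTA (19.3% at coding genes) and 8.82% with TAATCC on the sense strand alone (2.94%). The control-only share was 23.9% with 20 kb flanks, 36.4% with none and 30.3% to 31.2% without any 1 of the 8 genes that held 2 control-only regions. No paired analysis was possible because each genotype has a lone list and nothing was tested. Every difference is one between these 2 lists, and their read depth is unknown.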
